A study of Mus musculus with 4 samples.

Results

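The Ikaros family of transcription factors was followed in splenic CD4 T cells (helper T cells) of C57BL/6 mice aged 43 weeks. The family was taken as the 5 genes Ikzf1, Ikzf2, Ikzf3, Ikzf4 and Ikzf5, found by symbol among the 23700 rows of each table. All 5 were found on 1 row each, and all 5 were among the 11074 rows that passed the filter on low values. The libraries labelled KO (KO 1 and KO 2) are described as carrying a RIPK1 deletion restricted to T cells, and the libraries labelled wild type (WT 1 and WT 2) were their counterparts from the same strain, organ and age. All 4 sample titles also end in Ctrl, and what that tag stands for was not established here. The driver of the deletion, the exons removed and the number of mice behind each group are details not given in the sources used here. Any p-value therefore rests on the spread among these 4 libraries, and that spread may be technical.

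Ikaros family proteins bind DNA through a cluster of zinc fingers near the N-terminus and pair with one another through a second zinc finger pair at the C-terminus. They recruit the NuRD remodelling complex and other corepressors, and they repress or activate genes of lymphocyte development. Ikaros (Ikzf1) is made throughout the lymphoid lineage. Helios (Ikzf2) is known from regulatory T cells, Aiolos (Ikzf3) from B cells, Th17 cells and follicular helper cells, and Eos (Ikzf4) from regulatory T cells as a partner of FOXP3. Pegasus (Ikzf5) is the most distant member.

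The C-terminal finger pair is what makes the 5 proteins 1 family, and it holds the longest exact run that the coding sequences of Ikzf1 and Ikzf3 share. A stretch of 90 coding bases centred on that run is shown for each gene from GENCODE M21 (build GRCm38). Ikzf1 is given in lower case, and capitals in the others mark bases that differ from Ikzf1 at the same place.
Ikzf1: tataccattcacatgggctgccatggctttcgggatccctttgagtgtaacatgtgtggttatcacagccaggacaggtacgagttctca
Ikzf2: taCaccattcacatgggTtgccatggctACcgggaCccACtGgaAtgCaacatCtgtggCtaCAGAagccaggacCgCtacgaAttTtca
Ikzf3: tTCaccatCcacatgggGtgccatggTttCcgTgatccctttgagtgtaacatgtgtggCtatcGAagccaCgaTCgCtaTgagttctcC
Ikzf4: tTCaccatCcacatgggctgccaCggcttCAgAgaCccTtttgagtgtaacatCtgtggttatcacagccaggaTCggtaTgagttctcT
Ikzf5: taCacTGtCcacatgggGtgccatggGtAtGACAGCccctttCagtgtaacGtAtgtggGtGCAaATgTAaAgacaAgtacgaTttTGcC

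In GRCm38 the stretch lies at chr11:11769450-11769539 on the plus strand for Ikzf1 and, on the minus strand, at chr1:69538804-69538893 for Ikzf2, chr11:98467028-98467117 for Ikzf3, chr10:128634084-128634173 for Ikzf4 and chr7:131391673-131391762 for Ikzf5. It is coding in each, in exon 8 of the principal transcript of Ikzf1, Ikzf2, Ikzf3 and Ikzf4 and in exon 4 of that of Ikzf5. Ikzf4 matched Ikzf1 at 84.4% of the 90 bases, Ikzf3 at 82.2%, Ikzf2 at 77.8% and Ikzf5 at 66.7%. The exact run shared by Ikzf1 and Ikzf3 was 26 bases long. Over all annotated transcripts no pair of the 5 genes shared a window of 36 bases, and windows of 25 bases were shared by Ikzf1 and Ikzf3 (2 windows) and by Ikzf2 and Ikzf4 (4 windows). Read length is a detail not given in the sources used here, so how many reads could be assigned to more than 1 member is not known.

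Each table held 1 FPKM value per row (fragments scaled to transcript length and to the mapped total of the library), so levels are per length and can be set side by side between genes. Depth estimated from the steps of low values was 17600000 and 19100000 fragments in KO 1 and KO 2, against 21400000 and 22000000 in WT 1 and WT 2. Ripk1, the targeted gene, had 10.4 and 9.54 FPKM in KO 1 and KO 2, against 5.61 and 5.60 FPKM in WT 1 and WT 2, so the value goes against the label and every direction given here is that of the libraries labelled KO. Since FPKM sums over a gene, it cannot show whether single exons were lost. The T cell markers Cd3g, Lck and Cd3d were at 142 FPKM or more in every library. The median tested row was 0.38 higher on the log2(FPKM + 1) scale in the libraries labelled KO, and changes are therefore also given relative to it.

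Helios and Aiolos transcripts were higher in the libraries labelled KO, 4.14-fold and 4.29-fold. The ratio of mean FPKM was 1.63 for Ikaros, 1.52 for Eos and 1.28 for Pegasus, and these 3 did not pass the test. In limma at a Benjamini-Hochberg adjusted p of 0.05, 2 of the 5 genes were called higher and 0 lower. At that adjusted threshold 25.6% of all tested rows were called higher and 1.0% lower. At an unadjusted p under 0.05 the counts were 3 and 0, against 42.4% of all tested rows in either direction. After trimmed-mean scaling, which brings the median row to -0.01, the same 2 of 5 genes were called higher, while 4.68% of all rows were called higher and 5.2% lower. After quantile normalization only Ikzf3 passed, against 1.34% of all rows called higher, and Ikzf2 was at an adjusted p of 0.0515 in limma. With values scaled to 8 T cell markers, an alternative chosen after seeing the data, Ikzf2 and Ikzf3 passed, against 1.82% of all rows called higher. As deposited, 3 of these 8 markers were themselves called higher and 0 lower in limma (37.5% higher). Their ratios ran from 0.814 (Cd3d) to 2.28 (Cd4), so they are no fixed reference.

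**Figure D1:**
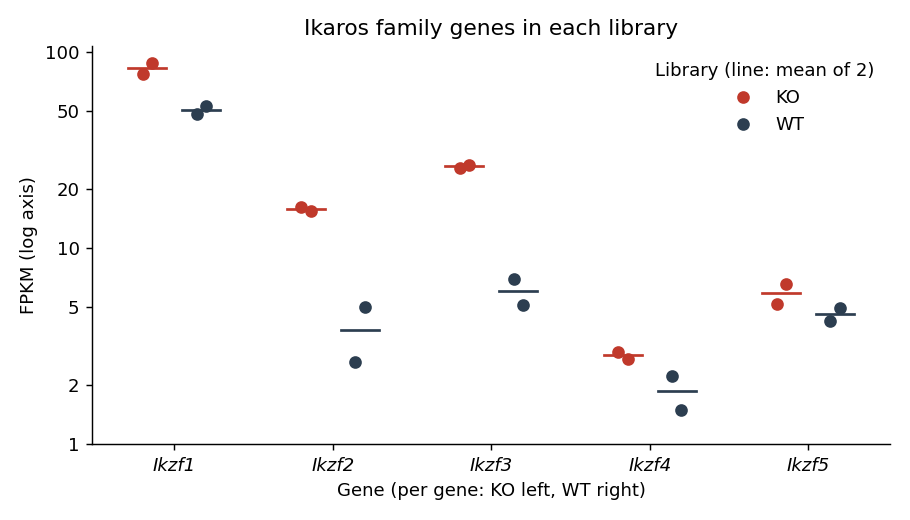
FPKM of the 5 Ikaros family genes in each library on a log axis, with KO libraries (red) left and WT libraries (dark) right and a line at the mean of 2. Ikzf2 and Ikzf3 lie at 15.4 to 26.6 FPKM in KO libraries and at 2.62 to 6.99 FPKM in WT libraries, while the groups lie close together for Ikzf4 and Ikzf5.

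Ikzf3 had 25.5 and 26.6 FPKM in KO 1 and KO 2, against 6.99 and 5.15 FPKM in WT 1 and WT 2. The KO libraries were close to each other and both lay well above both WT libraries. Group means were 26.1 ± 0.753 FPKM in KO libraries and 6.07 ± 1.30 FPKM in WT libraries (SD, n = 2 each), a 4.29-fold difference. The log2 change was 1.95 ± 0.20 (SE), with a 95% interval of 1.46 to 2.43 and a limma adjusted p of 0.0106. It lay 1.57 above the median row, and 1.09% of all tested rows had a larger change. About 1600 and 1900 fragments stood behind the KO values and about 550 and 410 behind the WT values, at the length of the principal transcript. Aiolos in T cells is known to silence Il2 in Th17 cells and to act with STAT3 on Bcl6.

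Ikzf2 had 16.1 and 15.4 FPKM in KO 1 and KO 2, against 2.62 and 5.0 FPKM in WT 1 and WT 2. The groups did not overlap, while 58.5% of tested rows had both KO libraries above both WT libraries. The WT libraries differed from each other by more than the KO libraries did. Means were 15.8 ± 0.471 FPKM in KO libraries and 3.81 ± 1.68 FPKM in WT libraries (SD, n = 2 each), 4.14-fold apart. The log2 change was 1.85 ± 0.26 (SE, 95% interval 1.23 to 2.47; limma adjusted p = 0.0129), or 1.47 above the median row, with 1.26% of tested rows larger. About 2600 and 2700 fragments stood behind the KO values, against about 520 and 1000 behind the WT values. Without WT 1 the change was 1.48 for Ikzf2 and 2.14 for Ikzf3, and neither passed (limma adjusted p = 0.0835 for both); without that library 9 of 10915 rows passed in all.

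Ikzf1 was the most abundant member in every library, with 77.0 and 87.4 FPKM in KO 1 and KO 2, against 48.3 and 52.7 FPKM in WT 1 and WT 2. The groups did not overlap, as was true of 58.5% of tested rows with both KO libraries above both WT libraries. The log2 change of 0.69 ± 0.21 (SE, 95% interval 0.19 to 1.19) missed the threshold in limma (adjusted p = 0.0523), and it passed without an intensity trend (0.039) and with robust variances (0.0422). It stood 0.31 above the median row, and 26.4% of tested rows had a larger change. After trimmed-mean scaling it was 0.22 (adjusted p = 0.379, limma), and with values scaled to the T cell markers 0.09 (0.759, limma).

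Ikzf4 was the lowest member, at 2.96 and 2.71 FPKM in KO 1 and KO 2, against 2.22 and 1.5 FPKM in WT 1 and WT 2. The log2 change was 0.43 ± 0.20 (SE, 95% interval -0.04 to 0.91; limma adjusted p = 0.146), 0.05 above the median row, and it was 0.09 after trimmed-mean scaling, 0.02 after quantile normalization and 0.00 scaled to the T cell markers. About 270 and 270 fragments stood behind the KO values, against about 240 and 170 behind the WT values. The interval reaches 0.91, and a pseudocount of 1 makes changes of a gene this low smaller. Ikzf5 had 5.17 and 6.57 FPKM in KO libraries, against 4.23 and 4.96 FPKM in WT libraries, with WT 2 just below KO 1. Its log2 change was 0.29 ± 0.19 (SE, 95% interval -0.16 to 0.75; limma adjusted p = 0.273) as deposited, 0.09 below the median row, and its sign turned after trimmed-mean scaling (-0.11), quantile normalization (-0.18) and scaling to the T cell markers (-0.22).

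**Figure D2:**
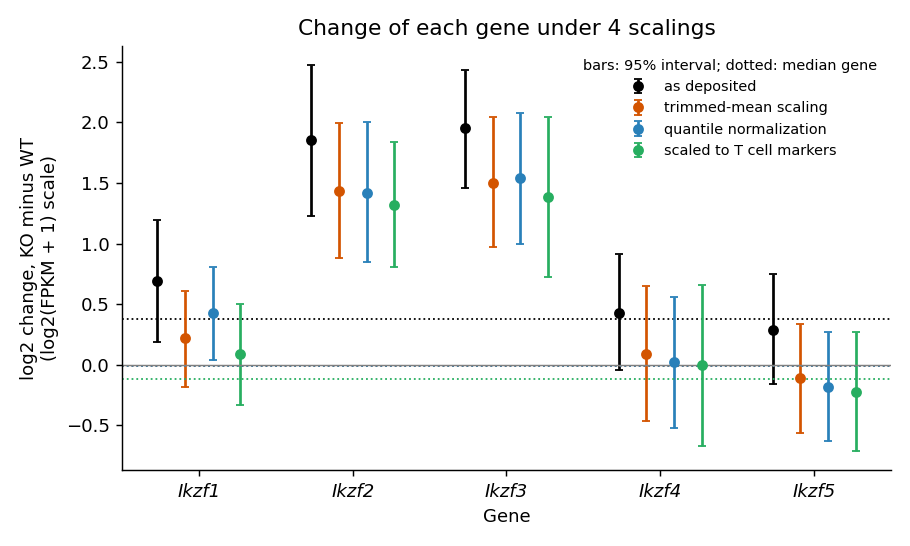
Log2 change of each gene, KO minus WT, on the log2(FPKM + 1) scale with 95% intervals under 4 scalings, and dotted lines at the median row of each scaling. Ikzf2 and Ikzf3 lie at 1.32 to 1.95 under all 4, while Ikzf5 is above 0 as deposited and below 0 under the other 3.

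In both KO libraries the order of the levels was Ikzf1, Ikzf3, Ikzf2, Ikzf5 and Ikzf4, and no neighbours overlapped. WT 2 had the same order, with Ikzf3, Ikzf2 and Ikzf5 at 5.15, 5.0 and 4.96 FPKM. In WT libraries Ikzf1 was also highest and Ikzf4 lowest, but Ikzf3 (6.07 ± 1.30 FPKM), Ikzf5 (4.59 ± 0.515 FPKM) and Ikzf2 (3.81 ± 1.68 FPKM; SD, n = 2 each) could not be ordered beyond their spread. Against all rows of its own library, Ikzf2 was above 86.6% and 86.5% in KO 1 and KO 2, against 67.3% and 74.3% in WT 1 and WT 2. Ikzf3 was above 91.8% and 92.6% in KO libraries, against 81.0% and 74.8% in WT libraries. Ikzf1 was above 96.8% or more of the rows in each of the 4 libraries.

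The summed level of the 5 genes was 127 and 139 FPKM in KO 1 and KO 2, against 64.3 and 69.3 FPKM in WT 1 and WT 2. Ikzf1 made up 60.8% and 63.0% of that sum in KO libraries, against 75.0% and 76.0% in WT libraries. Ikzf3 supplied 20.1% and 19.2% in KO libraries, against 10.9% and 7.44% in WT libraries. For Ikzf2 the shares were 12.7% and 11.1% in KO libraries, against 4.08% and 7.21% in WT libraries. A single scaling factor per library leaves these shares as they are, and for each of these 3 genes the groups did not overlap. On FPKM itself, rather than shares, 58.5% of tested rows had both KO libraries above both WT libraries, and 12.1% had both below. Ikzf5 took 4.08% and 4.74% in KO libraries, against 6.57% and 7.15% in WT libraries, again without overlap. Ikzf4 took 2.33% and 1.95% in KO libraries, against 3.45% and 2.16% in WT libraries, and there the groups overlapped. Shares of a library sum to a fixed total, so larger shares of Ikzf2 and Ikzf3 lower the others, and the 5 shares are not separate results. The mean FPKM of Ikzf1 and Ikzf5 was itself 1.63-fold and 1.28-fold higher in KO libraries, though neither gene passed the test.

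**Figure D3:**
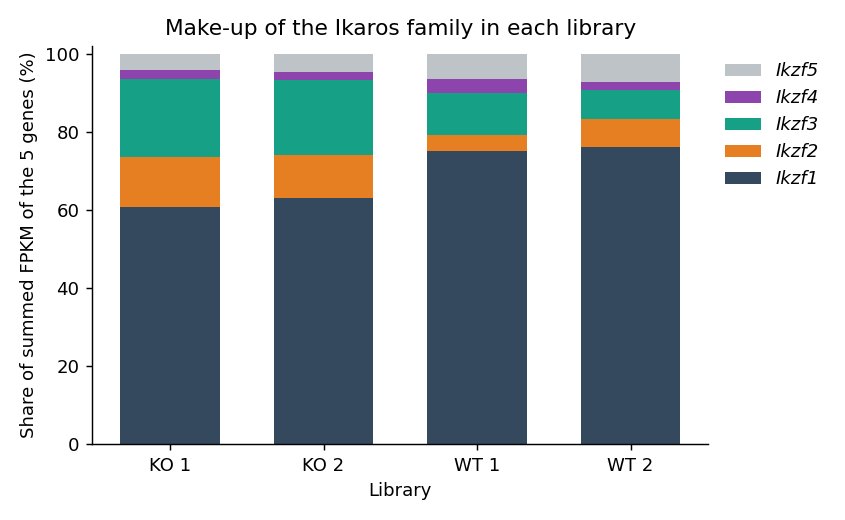
Share of each gene (%) in the summed FPKM of the 5 Ikaros family genes, as 1 stacked bar per library, KO libraries left. Ikzf1 takes 60.8% and 63.0% in KO libraries and 75.0% and 76.0% in WT libraries, and Ikzf2 and Ikzf3 take larger shares in KO libraries.

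Ratios within a library gave the same picture for Helios and Aiolos against Ikaros. The Ikzf2 to Ikzf1 ratio was 0.209 and 0.177 in KO 1 and KO 2, against 0.0543 and 0.0948 in WT 1 and WT 2, a log2 difference of 1.42. The Ikzf3 to Ikzf1 ratio was 0.331 and 0.304 in KO libraries, against 0.145 and 0.0978 in WT libraries, a log2 difference that also came to 1.42. In both cases the groups did not overlap, and the exact two-sided permutation p of 0.333 is the smallest that 2 libraries against 2 can give. Leaving out 1 library gave differences of 1.02 to 1.82 for Ikzf2 and 1.13 to 1.70 for Ikzf3. The Ikzf3 to Ikzf2 ratio, added after its values were seen, was 1.59 and 1.72 in KO libraries, against 2.67 and 1.03 in WT libraries, so the KO values lay between the WT values.

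Foxp3, the lineage factor of regulatory T cells, had 15 and 12 FPKM in KO libraries, against 2.26 and 2.56 FPKM in WT libraries (limma adjusted p = 0.0078). The Ikzf2 to Foxp3 ratio was 1.07 and 1.28 in KO libraries, against 1.16 and 1.95 in WT libraries. Those groups overlapped, and the log2 difference of -0.36 (exact two-sided permutation p = 0.667) ran from -0.73 to 0.02 on leaving out 1 library. Eos stood differently to Foxp3, a ratio that was added after its values were seen: it was 0.197 and 0.226 in KO libraries, against 0.984 and 0.584 in WT libraries, a log2 difference of -1.85 (exact two-sided permutation p = 0.333). In bulk RNA, more cells of a type and more RNA per cell cannot be told apart.

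**Figure D4:**
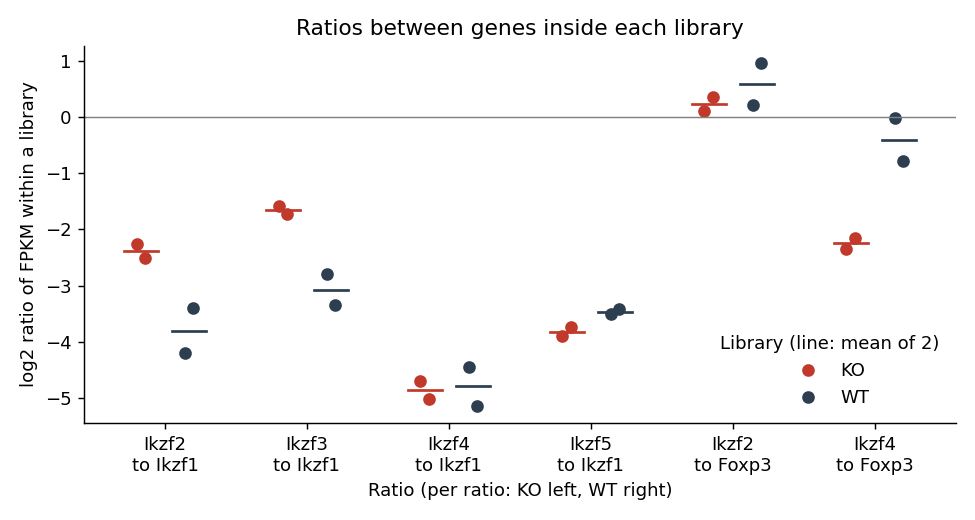
Log2 ratios of FPKM within each library, KO libraries (red) left and WT libraries (dark) right, with a line at the mean of 2. The ratios of Ikzf2 and Ikzf3 to Ikzf1 are higher in both KO libraries, the ratio of Ikzf2 to Foxp3 overlaps between groups, and that of Ikzf4 to Foxp3 is lower in both KO libraries.

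Regulatory T cell genes, among which Helios and Eos are known, were mostly higher. Of 14 tested, 12 were called higher and 0 lower in limma. That was 85.7% called higher, against 25.6% of all rows, with a median log2 change of 1.64, against 0.38 over all rows. At an unadjusted p under 0.05, 13 were higher and 0 lower, against 42.4% of all rows in either direction. After trimmed-mean scaling 8 were called higher (57.1%, against 4.68% of all rows). Itgae, the integrin CD103, had 12.3 and 7.74 FPKM in KO libraries, against 0.812 and 0.559 FPKM in WT libraries (limma adjusted p = 0.0078). Itgae and some other genes of this list passed the filter only through the KO libraries, so the counts only describe the list. Tnfrsf4, the receptor OX40, had 48.8 and 38.7 FPKM in KO libraries, against 5.92 and 10.5 FPKM in WT libraries (limma adjusted p = 0.0115). Nt5e, the ectonucleotidase CD73, was 4.70-fold higher (limma adjusted p = 0.0123). Il2ra, the interleukin-2 receptor alpha chain and named here after its values were seen, was at 27.6 and 27.2 FPKM in KO libraries, against 35.6 and 29.4 FPKM in WT libraries (limma adjusted p = 0.41).

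Lists of the other cell types in which Aiolos is known moved as well. Of 11 follicular helper genes 10 were called higher as deposited (90.9%, against 25.6% of all rows, median 1.98). After trimmed-mean scaling 6 were called higher (54.5%, against 4.68% of all rows). Tnfsf8 (6.45-fold), Pou2af1 (5.48-fold), Cxcr5 (5.04-fold) and Tox2 (12.6-fold) led by p. All 6 tested Th17 genes of 8 listed were called higher as deposited (median 1.70) and after trimmed-mean scaling, against 25.6% and 4.68% of all rows. Ccr6, a chemokine receptor of Th17 cells, was 8.87-fold higher and Rora and Ahr were 6.72-fold and 3.58-fold higher. After quantile normalization 6 regulatory, 4 follicular helper and 1 Th17 gene were called higher (42.9%, 36.4% and 16.7%, against 1.34% of all rows). Without KO 1 fewer genes passed the filter. The medians of these 3 lists were then 1.53, 1.98 and 2.14, against 0.34 over all rows. Only 2 Th17 genes were tested without either KO library. Genes such as Ahr passed the filter only through the KO libraries, so these counts only describe the lists. With no filter no gene of the 3 lists passed in limma. There 13 of 14 regulatory, 11 of 11 follicular helper and 8 of 8 Th17 genes were higher at an unadjusted p under 0.05. Over all rows 25.6% were under it in either direction. Calls were also lost without WT 1, where the list medians were 1.27, 1.71 and 1.71, against 0.29 over all rows.

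Among 23 genes reported as targets of the family, 19 were tested, 11 were called higher and 1 lower as deposited (57.9% higher, against 25.6% of all rows; median 0.92). With trimmed-mean scaling the counts were 4 higher and 2 lower, against 4.68% and 5.2% of all rows. The higher count was 1 after quantile normalization and when scaled to the T cell markers (5.26% in both, against 1.34% and 1.82% of all rows). Calls were fewer without KO 1 or WT 1, as over all rows. The list median was then 0.69 and 0.72, against 0.34 and 0.29 over all rows. Foxp3 and Il2ra also stand on the regulatory list, Bcl6 on the follicular helper list, Cd8a among the CD8 markers and Cd4 among the T cell markers. Besides Foxp3, the genes with the smallest p were Prdm1 (the factor Blimp-1), Stat3 and Cd4. Prdm1 had 4.67 and 3.21 FPKM in KO libraries, against 0.688 and 0.877 FPKM in WT libraries (limma adjusted p = 0.0131), and it passed the filter only through the KO libraries. Stat3 was 2.62-fold and Cd4 2.28-fold higher (limma adjusted p = 0.0171 and 0.0173). The 1 gene called lower was Dntt, which encodes terminal transferase and is a classical Ikaros target in lymphoid precursors; it had 0.765 and 1.53 FPKM in KO libraries, against 2.55 and 4.07 FPKM in WT libraries (limma adjusted p = 0.0353). Il2, a gene that Aiolos and Eos are known to repress, was near 1 FPKM in all 4 libraries, at 0.844 and 1.20 FPKM in KO libraries, against 1.32 and 1.10 FPKM in WT libraries (limma adjusted p = 0.638). Dntt and Il2 were picked out after their values were seen.

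Genes for the protein partners lay closer to the median row. Of 13 NuRD genes 5 were called higher and 0 lower as deposited (38.5%, against 25.6% of all rows; median 0.60), and 0 in either direction after trimmed-mean scaling in limma, with 4 higher and 0 lower at an unadjusted p under 0.05. The count was 2 without either KO library and 0 without WT 1 in limma, with 7 higher at an unadjusted p under 0.05 in that case. Chd4, the ATPase of the complex and the classical Ikaros partner, had 52.2 and 54.4 FPKM in KO libraries, against 24.9 and 25.8 FPKM in WT libraries (limma adjusted p = 0.0171). Gatad2b (2.96-fold), Gatad2a (2.08-fold), Chd3 (2.07-fold) and Mta2 (1.68-fold) were the others that passed. Of 7 tested genes for other chromatin partners 3 were called higher (median 0.84), namely the Polycomb methyltransferase Ezh2 (2.58-fold), the corepressor scaffold Sin3a (1.89-fold) and the remodelling ATPase Smarca4 (1.99-fold); Suz12 had a ratio of 1.80 at an adjusted p of 0.0512 (limma). None of the 7 passed after trimmed-mean scaling in limma, with 3 higher and 0 lower at an unadjusted p under 0.05. The count was 5 without WT 2, 1 without KO 1 and 0 without WT 1 in limma, where 4 were higher at an unadjusted p under 0.05.

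Regulators of Ikaros proteins were called higher about as often as all rows. Their list held the cereblon ligase, which degrades Ikaros and Aiolos when bound by thalidomide analogues, casein kinase 2, which phosphorylates Ikaros, and protein phosphatase 1, which reverses this. Of 11 genes 3 were called higher and 0 lower (27.3%, against 25.6% of all rows; median 0.59). They were the ligase subunits Ddb1 (1.92-fold) and Cul4a (1.61-fold) and the kinase subunit Csnk2b (1.77-fold), while the catalytic subunit Csnk2a1 had a ratio of 1.56 at an adjusted p of 0.0551 (limma). After trimmed-mean scaling 0 passed in limma, with 1 higher and 1 lower at an unadjusted p under 0.05. Without WT 1, KO 1 or KO 2 the count was 0 in limma, with 5, 2 and 4 higher at an unadjusted p under 0.05, and with robust variances it was 6.

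**Figure D5:**
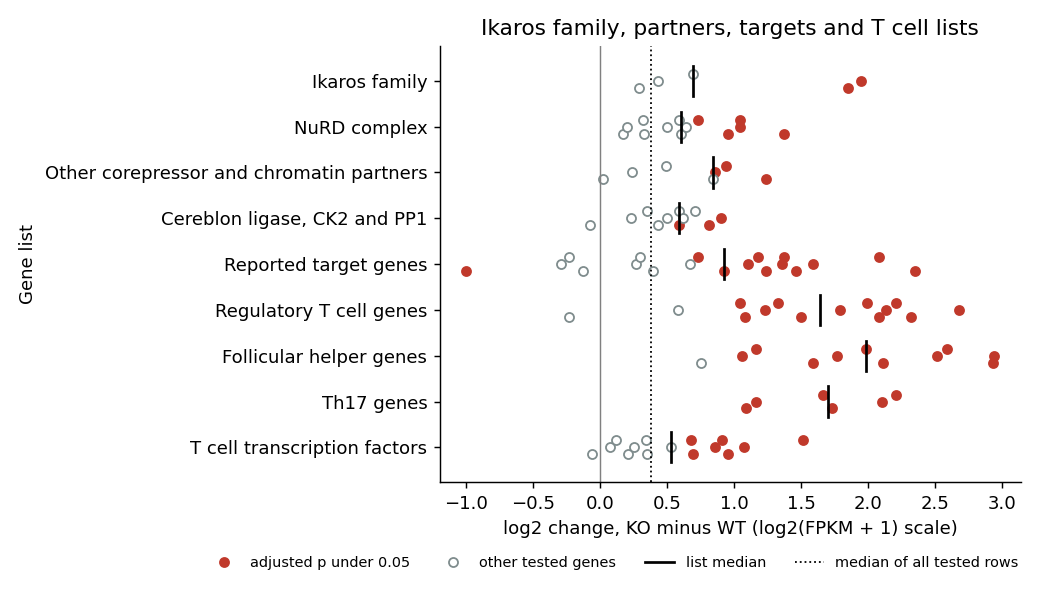
Log2 change, KO minus WT, on the log2(FPKM + 1) scale for each tested gene of the Ikaros family and of 8 lists, with filled points for an adjusted p under 0.05 (limma), black bars at list medians and a dotted line at the median of all tested rows (0.38). Ikzf2 and Ikzf3 lie among the genes of the regulatory, follicular helper and Th17 lists, and Ikzf1, Ikzf4 and Ikzf5 lie among the partner and regulator genes.

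In each library Ikzf1 was below Tcf7 and Ets1 and above the 13 other comparators in a list of 15 T cell transcription factors. Of the 15, 7 were called higher and 0 lower as deposited (46.7% higher, against 25.6% of all rows, median 0.53). After trimmed-mean scaling 1 was called higher (6.67%, against 4.68% of all rows). After quantile normalization 0 were called in limma, against 1.34% of all rows called higher. At an unadjusted p under 0.05, 5 were then higher, against 34.2% of all rows in either direction. Calls were fewer without WT 1, KO 1 or KO 2, as over all rows. The list median was then 0.36, 0.50 and 0.51, against 0.29, 0.34 and 0.39 over all rows. Tcf7 and Ets1, both factors of naive and memory T cells, stood at 247 and 271 and at 184 and 207 FPKM in KO libraries, against 127 and 160 and 92.5 and 110 FPKM in WT libraries. Myb was the comparator with the smallest p, at 14.5 and 17.6 FPKM in KO libraries, against 4.12 and 5.96 FPKM in WT libraries (limma adjusted p = 0.0131), and Tcf12 was 1.98-fold higher. None of the 15 reached the log2 change of Ikzf2 or Ikzf3.

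The genes whose values ran most like a member over the 4 libraries were found by the root mean square distance between centred log2(FPKM + 1) values, among 9653 named rows. Nearest to Ikzf2 were Kdm2b (distance 0.040) and Cyfip1 (0.050), and Kdm2b had 12.1 and 11.5 FPKM in KO libraries, against 1.67 and 3.78 FPKM in WT libraries. Nearest to Ikzf3 were Lilrb4 (0.071) and Polr2a (0.104), and Lilrb4 had 9.56 and 8.67 FPKM in KO libraries, against 1.86 and 1.28 FPKM in WT libraries. The nearest were Nin and Ranbp2 for Ikzf1, Card6 and Tnp2 for Ikzf4 and Srek1 and Rasa2 for Ikzf5. With 4 libraries many genes lie close to any pattern, and nearness says nothing of shared function.

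Markers of other cells that the samples could hold were given beside these results, since B cells also make Ikaros and Aiolos. The 10 B cell markers summed to 27.6 and 26.7 FPKM in KO libraries, against 26.1 and 22.0 FPKM in WT libraries. Pax5, a defining factor of B cells, was at 0.417 FPKM or less in every library. Of the 10, 4 were tested and 2 were called higher, Cd22 and Cd79b, of which Cd79b passed the filter only through the KO libraries. Without WT 1 the count was 0 in limma, with 2 higher and 0 lower at an unadjusted p under 0.05, and without either KO library it was 1. Fcer2a and Cd79a did not pass, and Cd22 had 4.93 and 4.41 FPKM in KO libraries, against 1.84 and 1.69 FPKM in WT libraries (limma adjusted p = 0.0144). Erythroid markers summed to 396 and 322 FPKM in KO libraries, against 7.11 and 99.7 FPKM in WT libraries, mostly from Hba-a2 and Hbb-b2. All 6 tested erythroid rows were called higher (against 25.6% of all rows, median 2.56). After trimmed-mean scaling 2 were (33.3%, against 4.68% of all rows). Some of the 6, such as Slc4a1, passed the filter only through the KO libraries. Slc4a1 was at 3.24 and 2.24 FPKM in KO libraries, against 0 and 0.218 FPKM in WT libraries. Plasma cell markers (Xbp1, Irf4, Igj and 2 more) summed to 32.4 and 47.2 FPKM in KO libraries, against 15.3 and 25.7 FPKM in WT libraries. Myeloid markers, chiefly S100a8 and S100a9 with some Lyz2, summed to 20.4 and 51.2 FPKM in KO libraries, against 5.17 and 40.6 FPKM in WT libraries. CD8 and NK markers, led by Nkg7, Cd8b1 and Klrd1, summed to 39.0 and 37.5 FPKM in KO libraries, against 26.0 and 24.9 FPKM in WT libraries, with Cd8a below 1 FPKM in all 4. Of these, Nkg7 had 25.4 and 22.7 FPKM in KO libraries, against 10.2 and 9.38 FPKM in WT libraries (limma adjusted p = 0.0136). Cd8b1 had a ratio of 1.02 and Klrd1 of 0.577, and neither passed (limma adjusted p = 0.941 and 0.0819). The part of these cells in the values of Ikzf1, Ikzf2 and Ikzf3 was not tested.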

How the data were processed

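RNA of splenic helper T cells was sequenced in 4 libraries, 2 labelled KO and 2 wild type, from 200 ng of total RNA with NEBNext Ultra kits, per the labels' protocols. Bowtie 0.12.2 and build mm8 are listed without a role, per the submitters' processing notes. Which program and annotation gave the values are points not given in the sources used here. For each library and gene symbol the authors deposited 1 FPKM value, per the file headers, which is normalized for length and mapped total, so a shift in abundant genes moves all others. Low values of genes with 1 transcript fell within 0.05 of whole fragments in 52.8% to 59.2% of cases, with 200 nt assumed as fragment length. This gave approximate depths, and no count test was run.

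Log2(FPKM + 1) values were compared in limma 3.58.1 (R 4.3.3), its prior variance following mean expression, for the 11074 rows with at least 1 FPKM in at least 2 libraries. Tests were two-sided with Benjamini-Hochberg adjustment over all rows tested. Folds are ratios of mean FPKM, and log2 changes understate those of low genes. Ratios within a library were set side by side with an exact permutation test. Alternatives were each library left out, a replicate block, pseudocounts of 0.1 and 5, other filters, trimmed-mean and quantile scaling, and limma without trend or with robust variance. Scaling to 8 T cell markers was added after seeing the data.

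The 5 members and the 14 lists were chosen with earlier results of these data known. Named were all members, up to 4 tested genes of each list by p, 3 genes of each marker list by mean FPKM, the 2 rows nearest each member and Ripk1. Mta2, Cd79b, Pax5, Cd8a, Il2, Il2ra, Bcl6 and Dntt were named after their values were seen. Some list genes that this rule names are not reported here. Of the list symbols, 2 were matched by an older name. The limma fit was run on simulated data with changes of random sign and no shift of the median row. These data have such a shift, so that run does not check the calls under it. Sequences came from GENCODE M21 on GRCm38, another build than mm8, and no position was joined to the values. Figures were drawn with matplotlib 3.10.9 under Python 3.11.15.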

Additional observations from a re-analysis of the deposited data

How the results depend on the processing

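Ikzf2 and Ikzf3 were higher under all 14 alternatives, from 1.25 to 2.21 and from 1.38 to 2.14 on the log2 scale. The 2 genes called became 1 after quantile normalization (Ikzf2 at 1.42) and 0 with no filter (1.85 and 1.95). With no filter both had an unadjusted p under 0.05 in limma, as did 25.6% of all rows. Both calls were also lost without WT 1, at changes of 1.48 and 2.14. Leaving out 1 library left 0 to 2 genes called, with log2 changes of 1.48 to 2.21 for Ikzf2, 1.76 to 2.14 for Ikzf3, 0.60 to 0.78 for Ikzf1, 0.25 to 0.62 for Ikzf4 and 0.15 to 0.44 for Ikzf5. Ikzf1 passed at 0.69 without trend and with robust variance. Ikzf4 was at 0.00 with values scaled to T cell markers and was not tested at a filter of 5 FPKM. Ikzf5 turned to -0.11, -0.18 and -0.22 with trimmed-mean scaling, quantile normalization and T cell markers. Over all rows, 2943 were called as deposited, 1094 after trimmed-mean scaling, 216 after quantile normalization, 590 scaled to T cell markers and 3 with no filter; without 1 library, 9 to 2294 (9 without WT 1, 1681 without KO 1). The cause of these shifts was not tested. With the replicate number as a replicate block, 4139 rows passed and Ikzf2 and Ikzf3 stayed at 1.85 and 1.95; deviations of same-numbered libraries had r = 0.11 across 11074 rows, with 2 pairs only, and the labels do not say that numbers pair libraries. Each value rests on 2 libraries per group.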
